A study of Capra hircus with 3 samples.

Results

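The 6 members described here are secreted or cell-surface regulators of WNT signalling in goat fetal skin: the R-spondins RSPO2 and RSPO3, the antagonists SFRP1, WIF1 and DKK1, and the receptor LGR5. They were taken by gene symbol, and all 6 were among the 16739 genes of the table. The skin came from the back of Northern Shaanxi White Cashmere goat fetuses (Capra hircus) at embryonic day 60 (E60), 90 (E90) and 120 (E120), with no treatment or genetic change given. Each stage was 1 single-cell library of the 10x Genomics 3′ kit, version 3, from at least 2 fetuses whose cells were pooled before barcoding. At E120 follicles were first isolated and then taken apart with TrypLE. The earlier stages were digested as whole skin, by collagenase IV with pipetting. The stage of the fetus and the way its skin was dissociated cannot be told apart. With 1 library a stage there is no replicate and no test, and every interval below covers counting error only. Intervals of levels, shares and folds are exact 95% intervals. Those of log2 differences set the lower limit of 1 sum against the upper limit of the other, so they are not exact 95% intervals.

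WNT proteins bind Frizzled and LRP co-receptors and stabilise β-catenin. R-spondins, bound to LGR receptors, remove the ubiquitin ligases ZNRF3 and RNF43 that would clear Frizzled, and so strengthen a WNT signal. SFRP1 and WIF1 bind WNT proteins directly, and DKK1 blocks the LRP co-receptor. In hair follicles WNT signalling is needed to start a placode and its dermal condensate, and the papilla that forms from the condensate later signals to the epithelium around it. LGR5 is also known as a mark of stem and progenitor cells of the lower follicle.

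The table held 20676 cells (19705 are stated in the design text), with 6849 at E60, 6931 at E90 and 6896 at E120. Counts of unique molecular identifiers (UMIs) had a median of 8579, 3714 and 13064 per cell. Between 19 and 23 cells of each library carried a barcode that another library also held. Clusters were made without the members and without 62 other WNT genes, so that WNT genes did not define them. Dermal-like cells, by markers such as COL1A1 and PDGFRA, were 5705 at E60, 521 at E90 and 217 at E120, and epithelial-like cells were 3, 2126 and 6118. At E90, 4045 cells stayed unnamed, 3970 of them in 1 cluster led by mitochondrial genes. Skin markers and labels went together except that E60 skin gave almost no epithelial-like cells and a group of 543 cells with tendon or cartilage markers.

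Across whole libraries the members went through different courses, given here as CPM, the UMI counts of a gene over all UMIs of the cells summed, scaled to 1000000. RSPO2, a ligand of LGR receptors, was at 0.138 CPM at E60 and 0.297 CPM at E90, with 9 counts each, and reached 18.8 CPM (17.9 to 19.7) by E120. RSPO3, the related ligand, went from 76.0 CPM (73.9 to 78.2) to 25.2 CPM (23.4 to 27.1) and 17.6 CPM (16.8 to 18.5). RSPO2 was thus nearly absent from both earlier libraries, whereas RSPO3 was present in all of them. In the same order of stages SFRP1 was at 39.001 CPM (37.5 to 40.5), then 11.1 CPM (9.94 to 12.3), then 27.3 CPM (26.3 to 28.4). WIF1 was at 1.40 CPM (1.13 to 1.72), then 22.9 CPM (21.2 to 24.6), then 56.9 CPM (55.4 to 58.5). WIF1 was thus lowest at E60, where SFRP1 was highest. DKK1, the LRP blocker, ran the other way, with 78.8 CPM (76.7 to 81.0), 26.2 CPM (24.4 to 28.04) and 0.214 CPM (20 counts). LGR5 peaked at E90: 78.1 CPM (75.0 to 81.3) there, 27.3 CPM (26.03 to 28.6) at E60 and 6.20 CPM (5.70 to 6.73) at E120. Whole libraries mix very different shares of cell classes, and a low sum can come from fewer cells of a type or from less RNA per cell, which these sums do not tell apart.

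**Figure D1:**
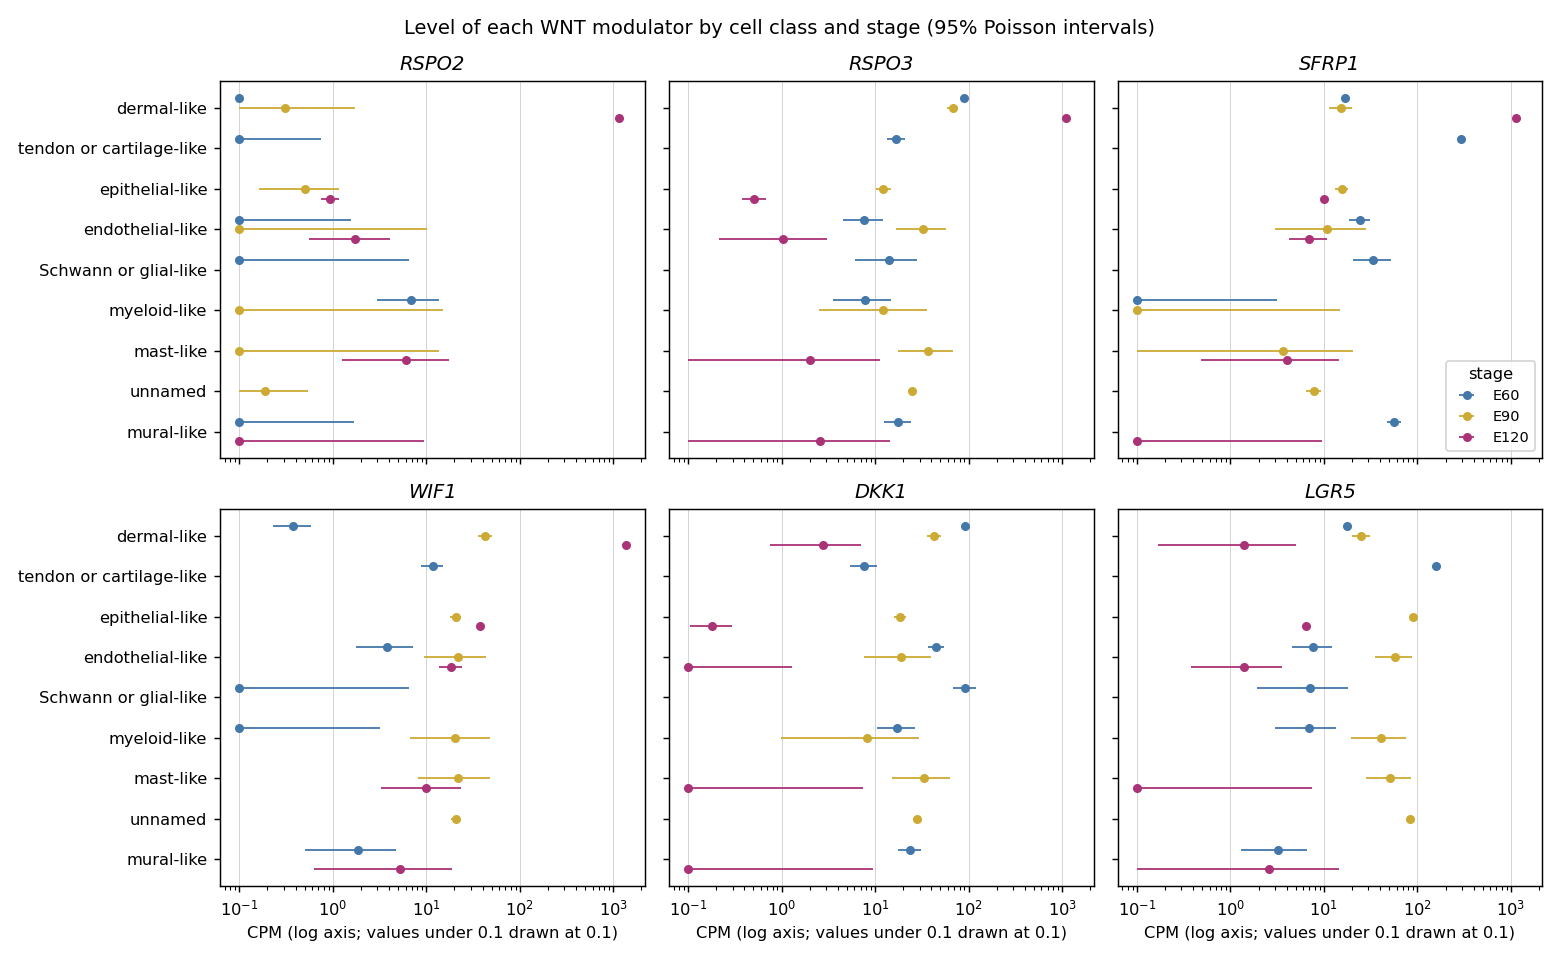
Level of each member in CPM (log axis, values under 0.1 drawn at 0.1) for every cell class of at least 50 cells, coloured by stage, with exact 95% Poisson intervals as bars. Dermal-like cells of E120 stand above 1000 CPM for RSPO2, RSPO3, SFRP1 and WIF1, while LGR5 at E90 lies between 25.2 and 89.0 CPM in every class.

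RSPO2 was almost wholly a gene of the E120 papilla-like cells. In a cluster of 207 E120 cells led by FGF7, a papilla growth factor, and by APOD, EDN3, SOX2 and COL1A1, RSPO2 had 1198 CPM (1141 to 1258). These cells were 3.00% of the library and held 93.7% of its RSPO2 counts, and 165 of them (79.7%) had a UMI of it. The next highest E120 cluster, of mast-like cells, had 6.03 CPM from 3 counts, and the median over 16 E120 clusters was 1.11 CPM. Of the endothelial-like cells of E120, 0.815% had an RSPO2 UMI at a median depth of 6421 UMIs, against 5511 UMIs in the papilla-like cells. The E90 cluster closest to the papilla or condensate, 229 cells led by BMP3, SPON1 and COL28A1, had no RSPO2 UMI, which allows up to 1.31% of its cells to have a UMI (not to express the gene) at a median depth of 4795 UMIs, and a level of up to 2.497 CPM. At E60, 8 of the 9 RSPO2 counts lay in 8 of 69 myeloid-like cells (11.4 CPM, 4.94 to 22.5), and 1 lay in 5705 dermal-like cells.

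The highest RSPO3 cluster was dermal-like at each stage, and it shifted between stages. At E60 RSPO3 was found in each dermal-like cluster, from 51.4 CPM (45.5 to 57.9) in cells led by SEMA3C and SMOC2 to 208 CPM (195 to 222) in 605 cells led by ISM1, C1QTNF7, CXCL14 and BMP7. A cluster of 394 cells led by cell-cycle genes and ISM1 came next, with 145 CPM (133 to 157). The intervals of these 2 clusters did not overlap each other or those of the other E60 clusters. At E90 the condensate-type cluster led by BMP3 had 99.1 CPM (82.1 to 118), and the other dermal-like cluster, led by COCH and FNDC1, had 48.8 CPM (39.6 to 59.5). The latter interval overlapped those of mast-like cells, at 36.7 CPM (17.6 to 67.4), and endothelial-like cells, at 32.8 CPM (16.9 to 57.2). Unnamed cells held 397 of the 763 RSPO3 counts of E90, and dermal-like cells 217. At E120 the papilla-like cells had 1149 CPM (1093 to 1208) and 95.6% of the library's RSPO3 counts. No other E120 cluster was above 2.58 CPM, which was 1 count in mural-like cells.

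WIF1 was highest at E60 in a cluster named by tendon or cartilage markers, and it had follicle sites later. At E60 it was highest in cells with tendon or cartilage markers (THBS4, COL2A1, TNMD), with 13.3 CPM (9.84 to 17.7) and 52.7% of the library's 91 counts in 6.23% of its cells. Dermal-like cells of E60, as named without the filter on genes and mitochondrial UMIs, had 0.376 CPM (0.230 to 0.580). At E90 the condensate-type cluster had 86.6 CPM (70.7 to 105), and the other 12 clusters lay between 11.5 and 26.96 CPM. When E90 cells were clustered alone, 166 cells had the highest WIF1, at 101 CPM, and 164 of them were in the condensate-type cluster. Those 166 cells stayed unnamed because markers of another class led, with TNMD among their leading genes. The condensate-type name was thus not given to them there. At E120 the papilla-like cells had 1382 CPM (1321 to 1446), but only 35.6% of the library's WIF1 counts. A further 30.9% lay in 883 epithelial-like cells led by DCN, SHH and CXCL14 (180 CPM, 171 to 188), and 21.3% in 641 cells led by cell-cycle genes (124 CPM, 116 to 131). SHH, the hedgehog ligand of follicle epithelium, had 146 and 126 CPM in these 2 clusters. The 5 clusters led by hair shaft or inner root sheath genes (KRT35, KRT71, KRT84, KRTAP11-1) had between 1.59 and 7.21 CPM, below the 18.4 CPM (13.8 to 24.1) of endothelial-like cells.

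SFRP1 had separate dermal and epithelial sites. At E60 it was highest in the same tendon or cartilage-like cells, with 339 CPM (321 to 359) and 75.4% of cells with a UMI, and it was 168 CPM (147 to 191) in a cycling cluster with the same markers. Among dermal-like clusters of E60 it reached 133 CPM (123 to 143) in the cluster led by SEMA3C, SMOC2 and MFAP5, and was under 10 CPM in the other 6. At E90 the condensate-type cluster had 33.3 CPM (23.8 to 45.3), an interval that overlapped those of 2 epithelial-like clusters, at 46.5 CPM (35.3 to 60.1) and 45.9 CPM (32.1 to 63.5). At E120 SFRP1 had 1187 CPM (1130 to 1247) in papilla-like cells and 263 CPM (241 to 287) in 265 epithelial-like cells led by SPP1, KLK7, KRT14, KRT17 and SOX9, a transcription factor of the outer root sheath. The remaining E120 clusters were at 25.2 CPM (13.4 to 43.1) or less.

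DKK1 peaked in E60 dermal-like clusters but was not confined to dermis. As whole classes of E60, dermal-like cells had 91.1 CPM (88.6 to 93.7) and Schwann or glial-like cells 90.5 CPM (67.4 to 119). The latter level came from 51 counts in 14 of 59 cells, with 17 of these counts in 1 cell. Endothelial-like cells of E60 had 44.6 CPM (36.5 to 54.0). After each cell was thinned to 2000 UMIs, DKK1 was in 13.4% of dermal-like, 5.08% of Schwann or glial-like and 11.4% of endothelial-like cells. DKK1 was highest in the ISM1-led dermal-like cluster that also led RSPO3, with 396 CPM (378 to 414) and a UMI in 474 of 605 cells. The cycling ISM1 cluster had 300.2 CPM (283 to 318), and the other E60 clusters lay between 5.83 and 95.2 CPM. Within the first of these clusters the agonist and the antagonist did not separate by cell: DKK1 was counted in 79.4% of 447 cells with RSPO3 and in 75.3% of 158 cells without it. At E90 DKK1 reached 50.3 CPM (41.0 to 61.1) in the COCH-led dermal-like cluster, close to 48.4 CPM (34.3 to 66.5) in an epithelial-like one. When E90 cells were clustered alone, a choice made after the data were seen, 49 dermal-like cells led by COCH and CXCL12 had 119 CPM (82.2 to 166), and 42 unnamed cells with the haemoglobin gene HBBC among their leading genes had 117 CPM (72.4 to 179). At E120 DKK1 had 20 counts in all. Of these, 15 came from 4 of 136 epithelial-like cells led by CCN2 and SEMA3E, with up to 5 UMIs in a cell.

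LGR5 was highest at E60 in the cluster named by tendon or cartilage markers, and it had an epithelial site at both later stages. At E60 the tendon or cartilage-like cells had 198 CPM (184 to 213) and 40.1% of the library's LGR5 counts, and the cycling cluster with the same markers had 61.2 CPM (48.8 to 75.8). The other E60 clusters had between 3.22 and 29.2 CPM. At E90 LGR5 was counted in every cluster, from 21.6 to 199 CPM. After each cell was thinned to 2000 UMIs, 14.6% of epithelial-like cells and 14.4% of endothelial-like cells of E90 had an LGR5 UMI, at unthinned median depths of 3944 and 3585 UMIs (28.7% and 22.2% unthinned). Dermal-like cells of E90 had 5.57% thinned, at a median of 5800 UMIs. In CPM, E90 epithelium was at 89.0 (83.3 to 95.1) and endothelium at 57.3 (35.5 to 87.7), and these intervals overlapped. Whether LGR5 differs between E90 epithelium as a whole and endothelium was not tested, and 1 cluster stood above both. That cluster, led by TAC1, SEMA3E, COL17A1 and LMCD1, was one of 2 with at least 50 cells from each later library, the other being mast-like. Its 164 E90 cells had 199 CPM (175 to 225) and 24.4% of cells with a thinned UMI, and its 136 E120 cells had 250.35 CPM (209 to 297) and 37.5%. Their median depths were 6962.5 and 3498 UMIs. In E90 cells clustered alone, 100 epithelial-like cells led by LMCD1, ITGB6 and TAC1 had 338 CPM (293 to 387), and 81 of them were in the shared cluster. The second highest of the 21 clusters of at least 50 cells had 103 CPM (86.7 to 120), and the median was 64.7 CPM.

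**Figure D2:**
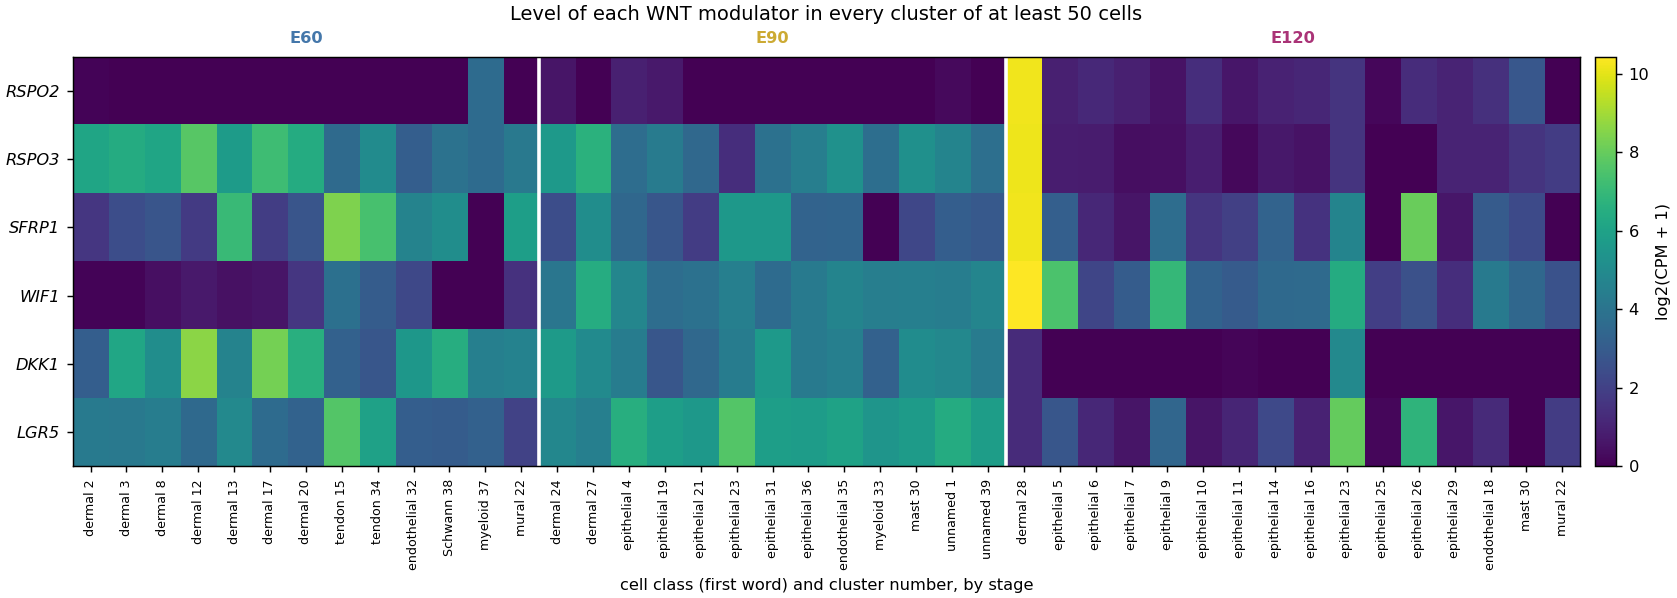
Level of each member as log2(CPM + 1) in the 42 sums of a cluster and library with at least 50 cells, grouped by stage and labelled with class and cluster number. RSPO2 and RSPO3 are bright in a single E120 column (cluster 28), DKK1 is brightest in E60 clusters 12 and 17, and LGR5 in clusters 15 of E60 and 23 of E90 and E120.

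The papilla-like cells of E120 carried agonists and WNT-binding antagonists together. Of the 207 cells, 125 (60.4%) had UMIs of all of RSPO2, RSPO3, SFRP1 and WIF1, 44 had 3 of these genes and 3 cells had none. RSPO3 was counted in 161 of 165 cells with RSPO2 (97.6%) and in 8 of 42 without it (19.0%). SFRP1 followed the same pattern, with 94.5% against 57.1%. WIF1 did not, with 81.8% of cells with RSPO2 and 90.5% of cells without it. Its level was 1170 CPM (1108 to 1235) in the cells with RSPO2 and 2428 CPM (2232 to 2638) in those without, at median depths of 5905 and 4882.5 UMIs. After thinning, WIF1 was in 58.4% of cells with RSPO2 and 86.2% of cells without.

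Sub-clusters of these cells, made without any WNT gene and after the data were seen, differed in their R-spondins and WIF1, and the largest held both. The largest, 116 cells led by CP, KLK7 and GAL, had 1577 CPM (1484 to 1674) of RSPO2, 1362 CPM (1276 to 1453) of RSPO3, 1585 CPM (1492 to 1683) of SFRP1 and 1378 CPM (1292 to 1469) of WIF1. In 30 cells with PAPPA2, CDH18 and COMP among their leading genes, RSPO2 was 1981 CPM (1802 to 2173) and RSPO3 2215 CPM (2026 to 2418), while WIF1 was only 362 CPM (288 to 449). In 24 cells led by CXCL14, RASL11A and COL28A1 the order turned. WIF1 was 4723 CPM (4326 to 5147) there, 13.1-fold (10.3 to 16.7) the level of the group of 30 cells, and RSPO2 was 227 CPM (147 to 335). Another group, of 25 cells, was led by ACTA2, COL11A1, ACTG2, TNMD and MGP, genes of contractile and matrix-making cells, with 4714 CPM of ACTA2 against 0 to 35.2 CPM in the other groups. It had WIF1 at 1222 CPM (1054 to 1410) and no count of RSPO2 or RSPO3, so the largest group was at least 80.8-fold higher for RSPO2 and at least 69.8-fold higher for RSPO3. These bounds hold for the sub-cluster only: the 21 of the 207 cells with at least 3 ACTA2 UMIs, taken without sub-clusters, had 186 CPM (123 to 271) of RSPO2 and 48.3 CPM (19.4 to 99.6) of RSPO3. SFRP1 was 130 CPM (79.4 to 201) in it, and FGF7 was 52.01 CPM against 2739 CPM in the largest group. The last 12 cells were led by KRT84 and cell-cycle genes, had a median of 17565 UMIs and 3581 CPM of the hair shaft keratin KRT35, and all 4 genes lay between 477 and 829 CPM in them.

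In the E120 cluster the largest group had 1.13-fold (0.963 to 1.33) the WIF1 level of the ACTA2-led group. The E90 condensate-type cluster had groups that differed in both RSPO3 and WIF1. Its 132 cells led by SHISAL2B, ADAMTS12 and SCUBE1 had RSPO3 at 167 CPM (137 to 203), SFRP1 at 62.7 CPM (44.6 to 85.7) and WIF1 at 17.7 CPM (8.83 to 31.6). Its 32 cells led by TNMD, SERPINF1, CPZ, MGP and ACTA2 had no count of RSPO3 or SFRP1, whereas WIF1 was 371 CPM (292 to 464). RSPO3 was thus at least 11.4-fold higher in the first group, and WIF1 20.9-fold (11.1 to 43.7) higher in the second. DKK1 was also higher in the second group, with 82.9 CPM (48.3 to 133) against 9.65 CPM (3.54 to 21.0). The other 65 cells, led by IGFBP3, FGFR4 and BMP4, had 40.1 CPM (22.4 to 66.1) of RSPO3 and 45.4 CPM (26.5 to 72.7) of WIF1. ACTA2, TNMD, MGP and COL12A1 were among the 10 leading genes of the WIF1-positive, RSPO3-negative group in both libraries. Without sub-clusters, cells of the same clusters with at least 3 ACTA2 UMIs gave WIF1 at 460 CPM (339 to 610) and no RSPO3 count in 16 cells of E90, and WIF1 at 815 CPM (674 to 975) in the 21 cells of E120, whose R-spondin levels, given above, were low but not 0.

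**Figure D3:**
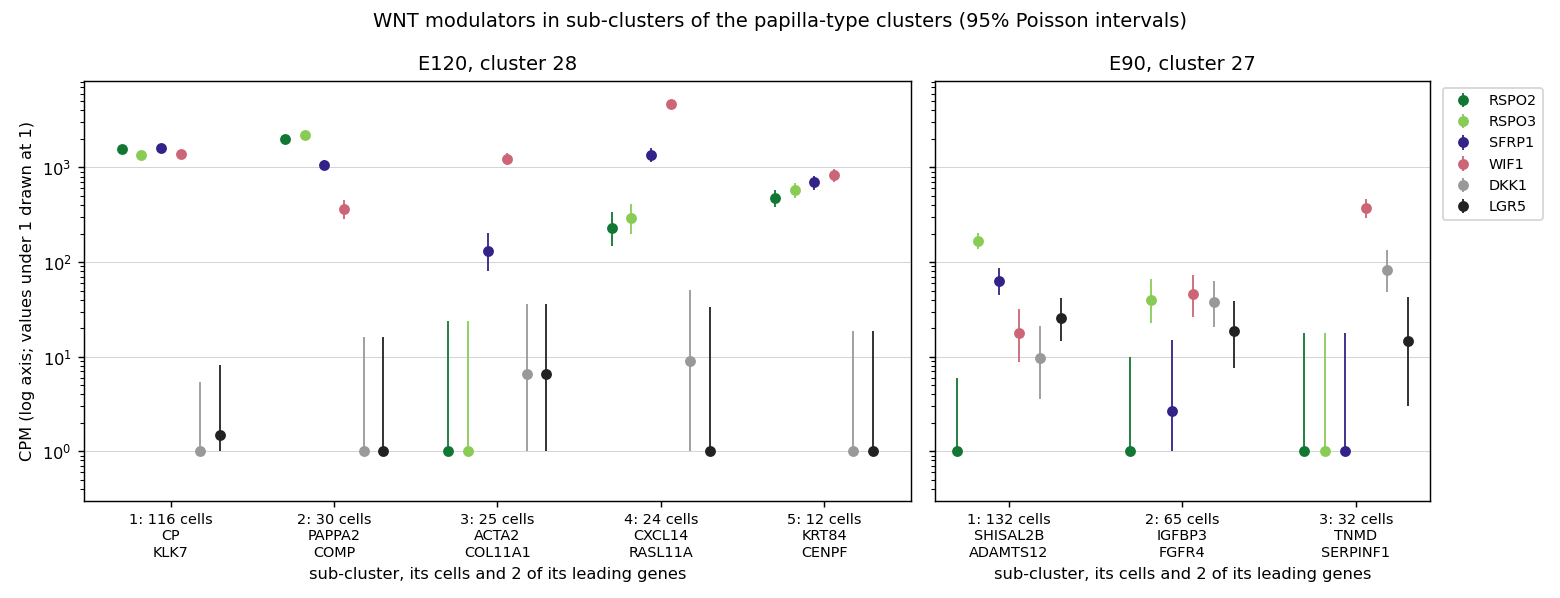
Level of each member (CPM, log axis, values under 1 drawn at 1) in sub-clusters of the E120 papilla-like cluster (left) and the E90 condensate-type cluster (right), with exact 95% Poisson intervals and the number of cells and 2 leading genes under each. WIF1 stays high in the ACTA2-led E120 group, where RSPO2 and RSPO3 have 0 counts, and in the TNMD-led E90 group, where RSPO3 has 0 counts. RSPO2 has 0 counts in every E90 group.

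**Figure D4:**
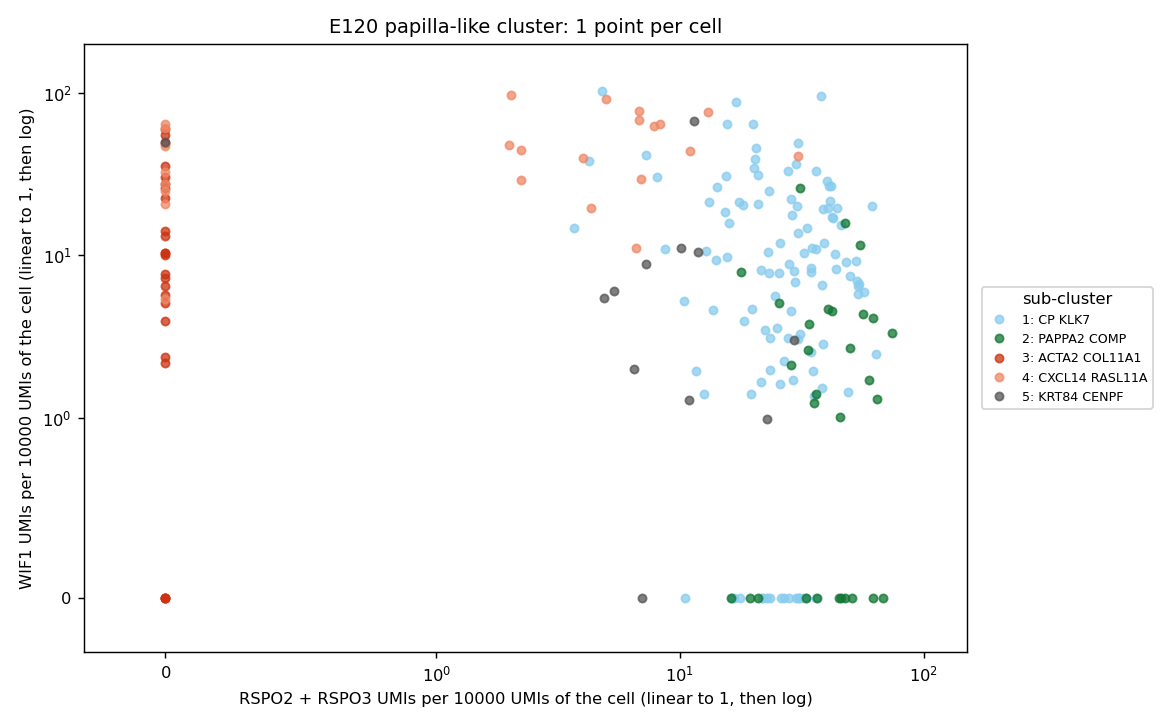
RSPO2 plus RSPO3 (horizontal) against WIF1 (vertical), each as UMIs per 10000 UMIs of the cell, for the 207 papilla-like cells of E120; both axes are linear to 1 and logarithmic above it, and colours are the sub-clusters. The 25 ACTA2-led cells all lie on the left edge, at 0 R-spondin UMIs, with some CXCL14-led cells, and the 30 cells labelled PAPPA2 COMP at the right.

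A similar look at the E60 tendon or cartilage-like cluster (427 cells) showed SFRP1 and LGR5 in all 7 of its sub-clusters, unevenly. SFRP1 was highest in 143 cells led by AQP4, MGP and DMRT2, with 592 CPM (547 to 639), and 8.85-fold (5.98 to 13.7) lower in 46 cells led by S100A4, KERA and COL2A1. LGR5 was 336 CPM (302 to 373) in the first group and between 106 and 227 CPM elsewhere. WIF1 was 38.0 CPM (27.2 to 51.5) in the AQP4-led cells and at most 8.84 CPM in the others. RSPO3 and DKK1 stood out only in 19 cells led by ACTG2, HS3ST6 and CDH6, at 71.7 CPM (43.2 to 112) and 90.6 CPM (58.0 to 135).

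In the E120 epithelium LGR5, SFRP1 and WIF1 marked different clusters. The SOX9- and KRT14-positive cluster of 265 cells had LGR5 at 109 CPM (94.6 to 124) beside its SFRP1, and within it LGR5 was counted in 42.4% of 158 cells with SFRP1 and in 14.0% of 107 cells without (34.3% and 11.4% after thinning). WIF1 was 4.96 CPM (2.38 to 9.11) there. The cluster shared with E90 had the highest LGR5, WIF1 at 85.4 CPM (62.0 to 115) and SFRP1 in only 6 of 136 cells. The SHH-positive clusters, high in WIF1, had LGR5 at 5.91 CPM (4.44 to 7.71) and 9.90 CPM (7.97 to 12.2). In the DCN-led one SFRP1 and WIF1 were mostly in different cells: WIF1 was counted in 31.6% of 57 cells with SFRP1 and in 55.9% of 826 cells without.

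**Figure D5:**
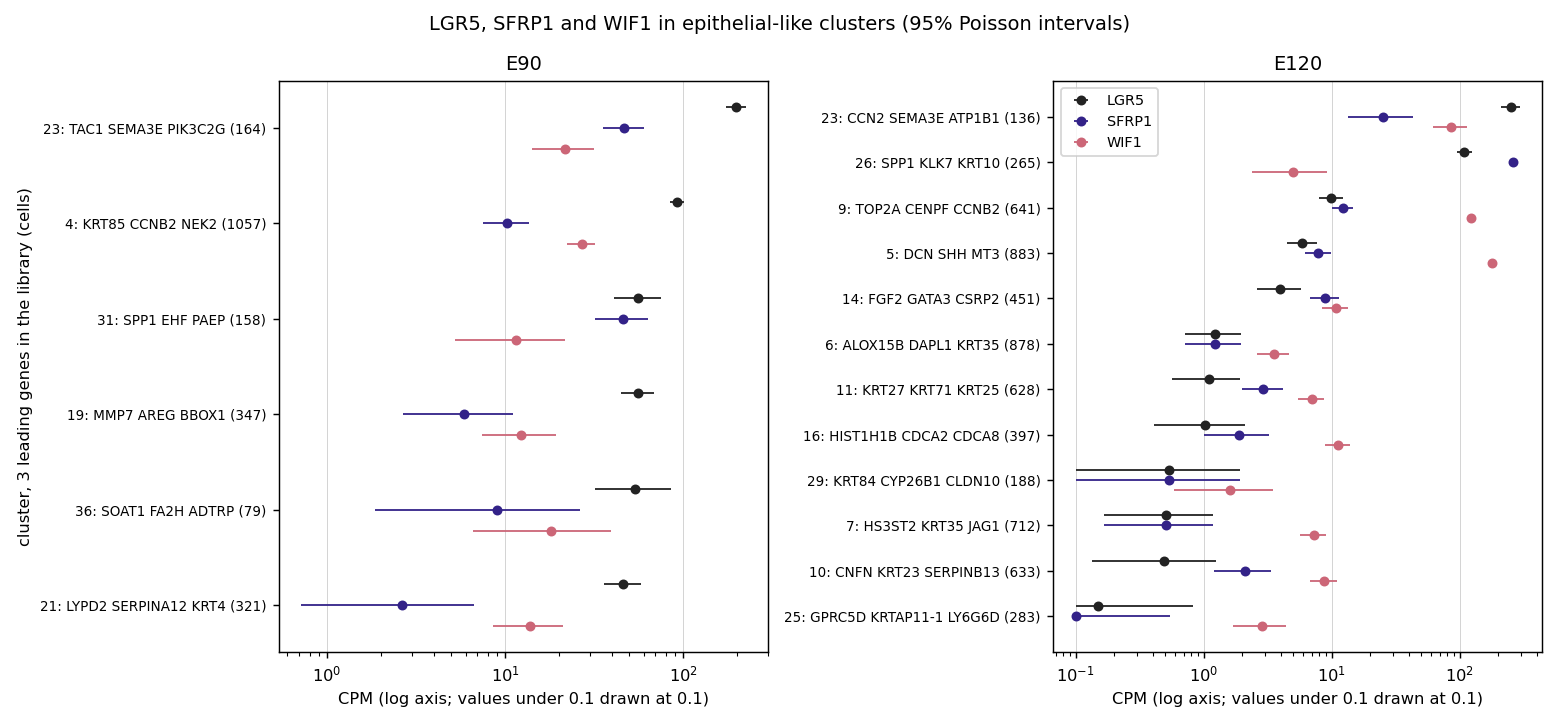
LGR5, SFRP1 and WIF1 (CPM, log axis, values under 0.1 drawn at 0.1) in epithelial-like clusters of E90 (left) and E120 (right), ordered by LGR5, with exact 95% Poisson intervals; labels give the cluster, 3 leading genes and the number of cells. At E120, clusters 23 and 26 lead LGR5, cluster 26 leads SFRP1, and clusters 5 and 9 lead WIF1.

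Set against the epithelium of the same library, the E120 dermal-like cells, 207 of 217 being the papilla-like cluster, were richer in both R-spondins and both WNT-binding antagonists. On the log2 scale of CPM + 1 the differences were 9.23 (9.004 to 9.45) for RSPO2, 9.52 (9.29 to 9.73) for RSPO3, 6.70 (6.54 to 6.86) for SFRP1 and 5.13 (5.02 to 5.24) for WIF1. DKK1 (4 against 16 counts) differed by 1.68 (0.44 to 2.88), and LGR5, with 2 dermal counts, by -1.64 (-2.78 to -0.21). That made 5 of 6 members at least 2-fold higher, where 29.8% of all genes tested were, and 1 at least 2-fold lower, where 13.0% were. With classes taken from each cell's own markers the LGR5 difference turned to 0.65. Of 12 hair shaft and inner root sheath markers, 11 were found in the dermal-like cells, with a sum of 2216 CPM, where the epithelium had 22410 CPM. Their part in these values was not tested. Of 13 condensate or papilla markers 11 were found there, CORIN and PROM1 being at 0.

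At E90 the same comparison gave smaller differences for every member except LGR5. RSPO3 was 67.6 CPM (58.9 to 77.2) on the dermal side and 12.3 CPM (10.2 to 14.6) on the epithelial side, a log2 difference of 2.37 (1.94 to 2.80). DKK1 differed by 1.18 (0.74 to 1.62), WIF1 by 1.008 (0.57 to 1.44), SFRP1 by -0.04 (-0.65 to 0.57) and LGR5 by -1.78 (-2.19 to -1.38). Of the 5 members tested, RSPO2 being too low, 3 were at least 2-fold higher, where 14.1% of all genes were, and 1 was at least 2-fold lower, where 10.1% were. With classes from each cell's own markers RSPO3 (0.91), WIF1 (0.57) and LGR5 (-0.44) fell short of 2-fold. E90 classes also shared counts: epithelial markers reached a sum of 985 CPM on the dermal side (12 of 12 found) and 8463 CPM on their own, and dermal markers 1224 CPM on the epithelial side (7 of 7 found) and 6627 CPM on their own. Their part in these values was not tested. In endothelial-like cells of E90, WIF1 had 21.8 CPM (9.43 to 43.0) and DKK1 19.1 CPM (7.69 to 39.4), beside 20.6 and 18.4 CPM in epithelial-like cells. Whether free RNA had a part in these like levels was not tested.

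Between E60 and E120, dermal-like cells differed in all 6 members. At E60 these cells were 7 fibroblast-type clusters of whole skin and at E120 the papilla-like cluster of picked follicles, so the comparison sets different cell populations side by side. WIF1 differed by 9.94 (9.68 to 10.17), SFRP1 by 6.02 (5.86 to 6.18) and RSPO3 by 3.61 (3.50 to 3.72), and RSPO2 went from 1 count in 5705 cells to 1161 CPM (1106 to 1218). DKK1 went from 91.1 CPM (88.6 to 93.7) to 2.79 CPM (0.760 to 7.14), a difference of -4.60 (-5.75 to -3.46). LGR5 differed by -2.96 (-4.08 to -1.54), with 17.7 CPM at E60 and 2 counts at E120. The 4 higher members stand beside 28.8% of all genes and the 2 lower ones beside 8.31%.

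In epithelial-like cells, E120 was lower than E90 for RSPO3 by a log2 difference of -3.14 (-3.51 to -2.73), for DKK1 by -4.03 (-4.33 to -3.70) and for LGR5 by -3.59 (-3.79 to -3.39). SFRP1 differed by -0.59 (-0.89 to -0.28) and WIF1 by 0.84 (0.60 to 1.08). None of the 5 members tested was at least 2-fold higher, where 6.66% of all genes were, and 3 were at least 2-fold lower, where 28.5% were. The E90 epithelial level of RSPO3, 12.3 CPM (10.2 to 14.6), was below that of endothelial-like cells, 32.8 CPM (16.9 to 57.2). DKK1 and WIF1 were at 18.4 and 20.6 CPM in the epithelium and 19.1 and 21.8 CPM in endothelial-like cells. The epithelial intervals of DKK1, WIF1, SFRP1 and LGR5 overlapped the endothelial ones. None of these 5 E90 epithelial levels thus had an interval wholly above that of endothelial-like cells. A part of free RNA in these levels was not tested. The classes also differed in makeup: the 5 E120 clusters led by hair shaft or inner root sheath genes had LGR5 at 0.149 to 1.22 CPM, and hair shaft and inner root sheath markers summed to 297 CPM in E90 epithelium.

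Other WNT genes were described by lists chosen with these comparisons in mind, of which 62 of 75 were in the table. Between dermal-like and epithelial-like cells 18 of 38 tested were at least 2-fold higher and 7 lower at E120 (median log2 difference 0.89, all genes 0.33), beside 29.8% and 13.0% of all genes, and 15 of 44 were higher and 9 lower at E90 (0.66, all genes 0.23), beside 14.1% and 10.1%. The ligand WNT5A, which acts largely outside the β-catenin route, was 614 CPM on the dermal side of E120 and 68.8 CPM on the epithelial side, and WNT10A, a ligand of follicle epithelium, was 17.4 and 51.9 CPM. The WNT secretion factor WLS was 594 and 258 CPM. Further antagonists were high beside the members: SFRP2, a relative of SFRP1, was 268 and 0.125 CPM, and SOSTDC1, a WNT and BMP inhibitor, 1017 and 8.38 CPM. Among readouts of the pathway NKD2 was 104 and 4.82 CPM and NKD1 113 and 46.5 CPM, whereas the nuclear factor LEF1 was 86.5 and 191 CPM and the cyclin CCND1 241 and 592 CPM. TCF7L2, another nuclear factor, was 226 and 21.4 CPM, and the receptor FZD10 116 and 46.6 CPM.

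At E90 the dermal side held WNT5A (222 and 84.1 CPM in dermal-like and epithelial-like cells), WNT5B (58.9 and 9.38 CPM), WNT11 (57.9 and 22.1 CPM), SFRP2 (55.5 and 9.48 CPM) and SOST, an LRP blocker (82.6 and 17.0 CPM). SOSTDC1 lay on the other side at E90, at 43.9 and 238 CPM. The receptors FZD6 (15.3 and 59.8 CPM) and FZD7 (20.3 and 61.4 CPM) and CCND1 (244 and 540 CPM) were also lower in dermal-like cells, and NKD1 and NKD2 higher. Between E60 and E120 dermal-like cells 17 of 40 listed genes were at least 2-fold higher and 3 lower (median 0.40, all genes 0.46), beside 28.8% and 8.31% of all genes, SOSTDC1 going from 1.88 to 1017 CPM and β-catenin's gene CTNNB1 from 14.6 to 60.7 CPM. In the epithelium 3 of 43 were higher at E120 than at E90 and 19 lower (median -0.82, all genes -0.44), beside 6.66% and 28.5%. WNT10A (14.5 to 51.9 CPM) and LEF1 (72.5 to 191 CPM) were among those higher, and TCF7L2 (149.8 to 21.4 CPM) and NKD2 (57.0 to 4.82 CPM) among those lower.

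The genes whose pattern was most like each member were ranked by Pearson's r of log2(CPM + 1) over the 42 sums, among 4227 genes. Sums of a library share its depth and free RNA, so r is a description only. For RSPO2 these were CP (0.88), BRSK2 (0.82) and CALB2 (0.76), for RSPO3 EN1 (0.92), RUNX3 (0.91) and PTH1R (0.90), and for DKK1 SEMA3D (0.91), NKD2 (0.87) and PRR16 (0.86). LGR5 was closest to LRIG3 (0.85), PPIP5K2 (0.84) and COL14A1 (0.84), WIF1 to CLK1 (0.80), NCOA3 (0.78) and TBL1XR1 (0.76), and SFRP1 to FGF18 (0.69), NTRK2 (0.67) and AMOTL2 (0.67). Among the members themselves RSPO3 and DKK1 were the closest pair (0.73), and RSPO3 with RSPO2 had 0.17.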

How the data were processed

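The authors' deposited table held natural log values: in each cell, UMI counts scaled to 10000 and written as the natural log of 1 plus that value, as the values showed. Cell Ranger 3.0.2 was used, per the submitters' processing notes; genome build, annotation and cell filters are not given in the sources used here. UMI counts were recovered on the assumption that a cell's lowest nonzero value is 1 UMI, on which all counts, intervals and depths rest (100% of nonzero values were whole multiples of it within 0.01), where the planned analysis had assumed counts. All cells entered; no column belonged to another sample.

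Cells were clustered in Python 3.11.15 (2000 variable genes, 30 principal components, 20 neighbours, Leiden resolution 1, leidenalg 0.10.2) without the members and listed WNT genes, giving 41 clusters, 35 with over 90% of cells from 1 library. Clusters were named from marker lists by at least 3 found markers (in at least 10% of cells, at least 2 times the median over clusters); this scoring was set after the data were seen, and rebuilt names may differ from the study's. Sub-clusters used 1000 variable genes, 10 components, 15 neighbours and resolution 0.5. Doublet scores were computed from simulated doublets, and no cell was removed in the main analysis. Counts were summed over cells as CPM with exact Poisson intervals, and shares given as percent of cells, with depth compared after thinning each cell to 2000 UMIs. Differences are log2 of CPM + 1. All genes with at least 1 CPM in either sum gave the share past 2-fold. Steps were tested on simulated data.

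The members and lists were chosen with earlier results of these data known. Named were the 6 members, other listed WNT genes with at least 50 CPM and a 2-fold difference, and the 3 genes most correlated with each member. Sub-clusters, their leading genes, and E90 clustered alone were chosen after values were seen. A leading gene of 1 sub-cluster is not reported here.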

Additional observations from a re-analysis of the deposited data

How the results depend on the processing

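Of 24 class differences, 19 were past 2-fold, and 14 of these stayed past it under all 6 alternatives. No paired analysis was possible because each stage was 1 library. With classes taken from each cell's own markers, the log2 differences at E90 (dermal-like against epithelial-like) were 0.91 for RSPO3, 0.57 for WIF1 and -0.44 for LGR5. At E120 they were 8.40 for RSPO2, 8.61 for RSPO3, 6.37 for SFRP1, 4.80 for WIF1 and, with its sign turned, 0.65 for LGR5, whose value in the report (-1.64) rests on 2 dermal counts; the cause was not tested. Between E60 and E120 dermal-like cells they were 9.95 for RSPO2, 4.62 for SFRP1, 8.96 for WIF1 and -1.32 for LGR5, and in epithelium 1.13 for RSPO2 and -0.057 for SFRP1. When only cells with 1000 genes or more and no more than 10% mitochondrial UMIs were used, SFRP1 was 4.78 and WIF1 9.19 between dermal stages, and -1.03 and 1.24 in epithelium. The mean of per-cell CPM gave 9.19 for RSPO3 and 5.74 for SFRP1 at E120, 10.27 for WIF1 between dermal stages, and in epithelium 0.46 for SFRP1, 1.13 for WIF1, -3.65 for DKK1 and -2.39 for LGR5. Scaling by the median of ratios, which shifts all genes by 0.29, 0.51, 0.61 and -0.60 in the 4 comparisons, gave 8.85, 9.18, 6.21 and 4.63 for RSPO2, RSPO3, SFRP1 and WIF1 at E120, 9.84, 3.005, 5.43 and 9.55 between dermal stages, and -0.035, 1.42 and -3.03 for SFRP1, WIF1 and LGR5 in epithelium. After removal of the 6% of cells scored most like doublets, RSPO2, RSPO3 and SFRP1 were 9.58, 9.81 and 6.89 at E120 and 10.32, 3.78 and 6.38 between dermal stages. A pseudocount of 0.1 CPM gave 10.14, 10.83 and 3.36 for RSPO2, RSPO3 and DKK1 at E120, 13.25 and 11.47 for RSPO2 and WIF1 between dermal stages, and -4.34 and -6.03 for RSPO3 and DKK1 in epithelium. Thinning to 2000 UMIs lowered the shares of cells with a UMI, which then limit what can be seen. At E60 they were 0.0292% for RSPO2, 13.5% for RSPO3, 5.45% for SFRP1, 0.234% for WIF1, 11.6% for DKK1 and 4.80% for LGR5. At E90 they were 0.0577%, 4.73%, 2.19%, 3.997%, 4.93% and 13.8% in that order, and at E120 2.36%, 2.10%, 4.67%, 8.21%, 0.0870% and 1.99%.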
